A study of Homo sapiens with 6 samples.

Results

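Transcript levels in A549, a long-established cell line from a human adenocarcinoma of the lung, were compared to ask which genes stood further from the untreated level, or less far, after mild heat and X-rays together than the sum of both treatments alone. Of the 6 arrays in the series, 4 enter this comparison, and each is a group of 1 array. They are the control at 37 °C, cells given 3 Gy of X-rays (IR), cells heated for 1 h at 41.5 °C (HT 41.5), and cells heated for 1 h at 41.5 °C and irradiated with 3 Gy straight afterwards (IR_HT 41.5). Both single treatments ended with 3 h at 37 °C. The labels give no such time for the combined cells or the control, so an effect of the combination and a difference in time cannot be told apart. The other 2 arrays, heated at 44 °C for 1 h without and with 3 Gy, enter the limit on level, 1 alternative and the fitted test, and their own values are given beside the mitotic and p53 lists. All groups share the line, and nothing in the labels says that they came from separate cultures.

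For each gene the departure is the log2 level in IR_HT 41.5, minus that in HT 41.5, minus that in IR, plus that in the control. It equals the radiation effect in heated cells minus the radiation effect in unheated cells, and those 2 differences share no array. A departure of 0 means that the fold changes multiplied, and a departure of 1 means that the combined level was 2-fold above the sum of both log2 effects. Genes entered with a mean log2 level of 5 or more over all 6 arrays, which kept 8604 of 14884 genes. With 1 array a group a departure has no replicate check, so the values below describe these arrays and carry no test unless one is named.

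Ionizing radiation breaks DNA, and the damage signal stabilizes p53, a transcription factor that raises genes of cell cycle arrest, antioxidant defence and apoptosis. The same signal holds cells before mitosis, and the genes that drive mitosis, many of which carry a CHR element in their promoters, are repressed together by the DREAM complex. Mild heat unfolds proteins and activates HSF1, which raises the chaperones. Heat given close to irradiation is known to make tumour cells more sensitive to radiation.

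Across the 8604 genes the quartiles of the departures were -0.14 and 0.15, with a median of 0.01. A departure of 2-fold or more was seen for 9 genes upward (0.105% of genes) and 14 downward (0.163%), and one of 1.5-fold or more for 115 upward (1.34%) and 137 downward (1.59%). NEIL1, at 1.03, was the last gene past the upper 2-fold size and LINC00852, at 0.9976, the first short of it, while MIR324, at -1.0045, and CCHCR1, at -0.99, stood on either side of the lower one. The level limit fell between NLGN4Y-AS1, kept at a mean of 5.0004, and TBX6, left out at 4.9996.

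Genes of mitosis went further down than the sum. Of the 32 mitotic regulators kept, 29 had a negative departure, with a median of -0.29 against 0.01 for all genes, and 3 were past 1.5-fold downward and 0 upward. Of the 34 genes of kinesins, the kinetochore and condensin, 27 had a negative departure, with a median of -0.33, 5 past 1.5-fold downward and 0 upward. Among all genes 48.6% had a negative departure, 1.59% were past 1.5-fold downward and 1.34% upward. In bulk RNA, fewer cells in mitosis and less of these transcripts in each cell cannot be told apart.

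AURKA, the kinase that matures the spindle poles, had the lowest departure of the mitotic regulators. Its log2 level was 7.64 in the control, 7.30 in IR, 7.89 in HT 41.5 and 6.80 in IR_HT 41.5. The sum of both effects would have left it 0.10 below the control, and the combined array was 0.84 below, a departure of -0.74 (1.67-fold). CCNF, a cyclin that serves a ubiquitin ligase, stood at 7.31, 6.57, 7.25 and 5.85 in the same order, so that it was low in IR, near the control after heat alone and lowest after both, with a departure of -0.66. PTTG1, which encodes securin, had a departure of -0.62, but it was dim, with levels of 5.19, 5.03, 4.96 and 4.19. It passed the limit on level only through the arrays at 44 °C (mean of the 4 arrays of the departure 4.84).

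The 250 bases before the start of the 3 mitotic regulators with the lowest departures and a promoter entry are shown because the genes of this list moved together (RefSeq, GRCh38.p14, 5′ to 3′). Capitals mark each CHR (TTTGAA or TTCGAA) and each CCAAT box, the site of NF-Y, on either strand, so that ATTGG is a CCAAT box on the other strand.
CCNF (chr16:2429197-2429446, + strand): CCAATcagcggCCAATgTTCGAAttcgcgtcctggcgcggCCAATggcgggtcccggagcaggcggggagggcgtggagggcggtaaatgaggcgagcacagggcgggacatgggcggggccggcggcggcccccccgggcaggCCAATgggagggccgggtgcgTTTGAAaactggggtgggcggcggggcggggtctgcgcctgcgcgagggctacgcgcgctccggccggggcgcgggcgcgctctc
PTTG1 (chr5:160421605-160421854, + strand): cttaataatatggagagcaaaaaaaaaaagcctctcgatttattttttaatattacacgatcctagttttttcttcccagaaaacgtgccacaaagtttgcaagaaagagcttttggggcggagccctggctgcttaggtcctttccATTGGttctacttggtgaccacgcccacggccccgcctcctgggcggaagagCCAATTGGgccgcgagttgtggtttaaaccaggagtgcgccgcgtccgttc
HMMR (chr5:163460382-163460631, + strand): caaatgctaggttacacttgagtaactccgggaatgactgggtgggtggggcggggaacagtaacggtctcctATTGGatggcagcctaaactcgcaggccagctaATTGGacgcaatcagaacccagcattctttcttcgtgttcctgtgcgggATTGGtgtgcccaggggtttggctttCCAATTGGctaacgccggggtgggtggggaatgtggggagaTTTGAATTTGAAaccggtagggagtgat

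CCNF held a TTTGAA that begins at base -85, counted from the start, and HMMR a pair of adjoining ones at -28 and -22, whereas PTTG1 held CCAAT boxes and none of the CHR letters in this window. Over windows of 250 bases before to 50 bases after the start, a CHR was present in 17 of the 25 mitotic regulators with an entry (68.0%) and in 26 of 33 genes of the kinesin and kinetochore list (78.8%). Among the 6764 genes kept that have an entry the share was 11.1%, and it was 16.6% in all 27305 promoter entries. A CCAAT box was present in 80.0% and 66.7% of the 2 lists and in 36.4% of the genes kept. These elements are known for such genes, and a match is a run of letters and not a measured site. Within both lists joined, the 43 genes with a CHR had a median departure of -0.31 and the 15 without one -0.24, and 35 and 14 of them were below 0. Whatever their list, genes 1.5-fold or more below the sum held a CHR in 9 of 77 promoters (11.7%, against 11.1% of genes kept). For those 1.5-fold or more above it the count was 3 of 68 (4.41%). At a mean level of 7 or more, a limit chosen after seeing the data, it was 5 of 12 downward (41.7%). A link of the CHR to the departure was not tested.

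The other mitotic regulators named for their known roles departed less. CCNB1, the cyclin that takes CDK1 into mitosis, stood at 8.31 in the control, 7.87 in IR, 8.34 in HT 41.5 and 7.48 in IR_HT 41.5, a departure of -0.42. PLK1, a kinase of mitotic entry, stood at 9.80, 9.26, 9.71 and 8.85 in the same order, a departure of -0.31. CDC20, which activates the anaphase-promoting complex, was about as low in IR (8.38) as in IR_HT 41.5 (8.45), with 8.83 in the control and 8.97 in HT 41.5, and its departure was -0.07. The 3 highest departures of the list were those of CKS2 (0.07), CDC25B, a phosphatase that activates CDK1 (0.26), and FZR1, another activator of the anaphase-promoting complex (0.28).

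KIF20A, a kinesin of cytokinesis, led the motors. It stood at 8.06 in the control, 7.79 in IR, 8.18 in HT 41.5 and 7.14 in IR_HT 41.5, a departure of -0.78 (1.71-fold). KIF18A, which restrains chromosome movement at the spindle equator, had a departure of -0.64, and CKAP2L, a spindle protein, one of -0.61. SKA1, of the outer kinetochore (-0.60), the motors KIF14 (-0.60) and KIF23 (-0.54) and CENPA, the centromeric histone (-0.56), came next. TOP2A, the topoisomerase that untangles chromosomes, was the brightest of the list at a mean of 10.50, with 10.64, 10.57, 10.67 and 10.17 on the 4 arrays, so that only the combined array was low. At the other end were KNL1 (0.16), KIF4A (0.19) and DEPDC1B (0.21). All 3 became negative when the radiation effect outside mild heat was taken as the mean of those at 37 °C and 44 °C. That setting lowered the list as a whole, to a median of -0.50. The radiation effect of the list had a median of 0.09 at 44 °C against -0.30 at 37 °C.

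Set out by treatment, the median difference of the mitotic regulators from the control was -0.32 after radiation and -0.09 after mild heat. The median of the sums was -0.39, and the combined array stood at -0.67. For the kinesin and kinetochore list the same medians were -0.30, 0.0010, -0.32 and -0.65. The combined array was the lowest of the 4 for 28 of 32 and 31 of 34 genes, against 27.4% of all genes kept. Radiation alone took 3 and 4 genes of the lists 1.5-fold or more below the control (0.686% of all genes), and radiation of heated cells took 15 and 16 that far below heat alone (0.918%). Against the control, the combined array was that far below for 18 and 19 (2.49%).

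**Figure D1:**
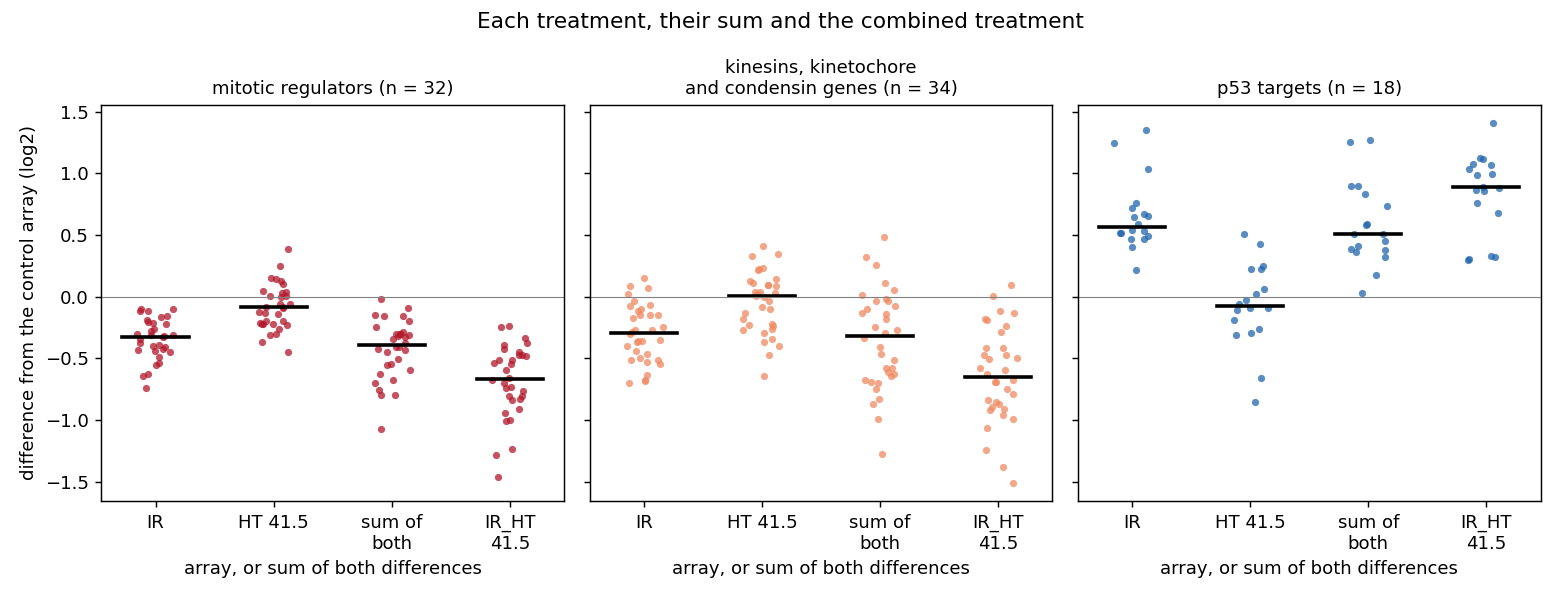
Differences from the control array on the log2 scale after radiation (IR), after mild heat (HT 41.5), as the sum of both, and in the combined array (IR_HT 41.5), 1 point a gene and bars at the medians, for 3 lists. The combined medians (-0.67, -0.65 and 0.88) lie further from 0 than the medians of the sums (-0.39, -0.32 and 0.51).

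At 44 °C, where the departure shares the control and IR arrays with the one at 41.5 °C, the medians of the mitotic lists were 0.33 and 0.35. The radiation effect measured between the 2 arrays at 44 °C had medians of -0.01 and 0.09 for these lists, with 18 of 32 and 8 of 34 genes below 0. At 37 °C these medians were -0.32 and -0.30, with 32 of 32 and 30 of 34 genes below 0. At 41.5 °C they were -0.58 and -0.52, with 32 of 32 and 34 of 34 below 0.

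The p53 targets went further up than the sum. Of 32 genes listed 19 were measured under those names and 18 kept, and CDKN1A, MDM2 and BTG2 are not analysed here. Of the 18, 15 had a positive departure (51.4% of all genes), with a median of 0.23. Past 1.5-fold were 3 upward (1.34% of all genes) and 0 downward (1.59%). The median difference from the control was 0.56 after radiation, -0.08 after heat and 0.88 after both, and the median of the sums was 0.51. All 18 were above the matching unirradiated array at both 37 °C and 41.5 °C, 9 and 16 of them by 1.5-fold or more (0.616% and 0.802% of all genes). The combined array was that far above the control for 14 (2.44%).

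SESN2, a sestrin that restrains mTORC1 under stress, had the highest departure of the list. It stood at 6.22 in the control, 6.80 in IR, 5.95 in HT 41.5 and 7.20 in IR_HT 41.5, so that the combined array was the highest of the 4, and the departure was 0.66 (1.58-fold). TP53INP1, a p53 cofactor in apoptosis and autophagy, stood at 5.91, 7.15, 5.06 and 6.94 in the same order, a departure of 0.64. GDF15, a secreted stress cytokine, stood at 8.68, 9.71, 8.02 and 9.67, a departure of 0.61. For TP53INP1 and GDF15 the combined level did not pass that of IR. Heat alone had lowered levels of both, with differences of -0.85 and -0.66 from the control, against -0.21 and -0.05 between the irradiated arrays.

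The combined array was the highest of the 4 for 13 of the 18 p53 targets, against 26.1% of all genes kept. SESN1, another sestrin, had a large radiation effect on both pairs (1.35 and 1.503) and a departure of 0.15. The pro-apoptotic BBC3, which encodes PUMA, stood at 5.48 in the control, 6.01 in IR, 5.39 in HT 41.5 and 6.24 in IR_HT 41.5, a departure of 0.31. The 3 genes below 0 were TRIAP1 (-0.14), an inhibitor of apoptosis, RPS27L (-0.09), a ribosomal protein that p53 induces, and RRM2B (-0.07), a ribonucleotide reductase subunit for repair. At 44 °C the radiation effect of the list had a median of 0.15, with 13 of 18 genes above 0, and the departure a median of -0.45.

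**Figure D2:**
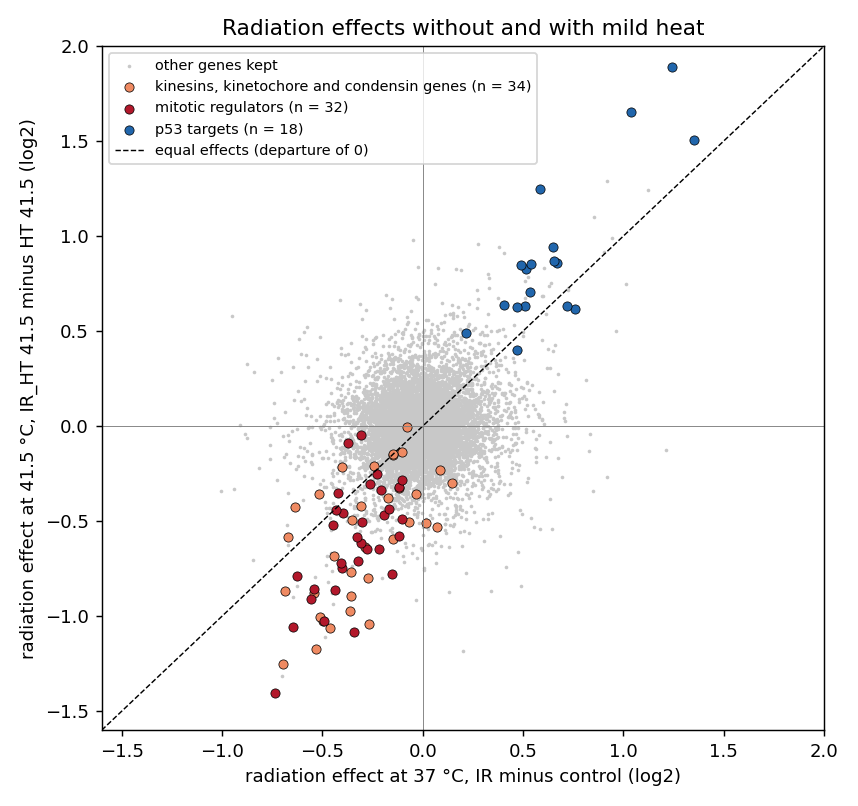
Radiation effect at 41.5 °C (IR_HT 41.5 minus HT 41.5) against that at 37 °C (IR minus control), both in log2, 1 point a gene for the 8604 genes kept, with 3 lists coloured. Genes on the dashed line have a departure of 0: 29 of 32 mitotic regulators lie below it and 15 of 18 p53 targets above it.

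**Figure D3:**
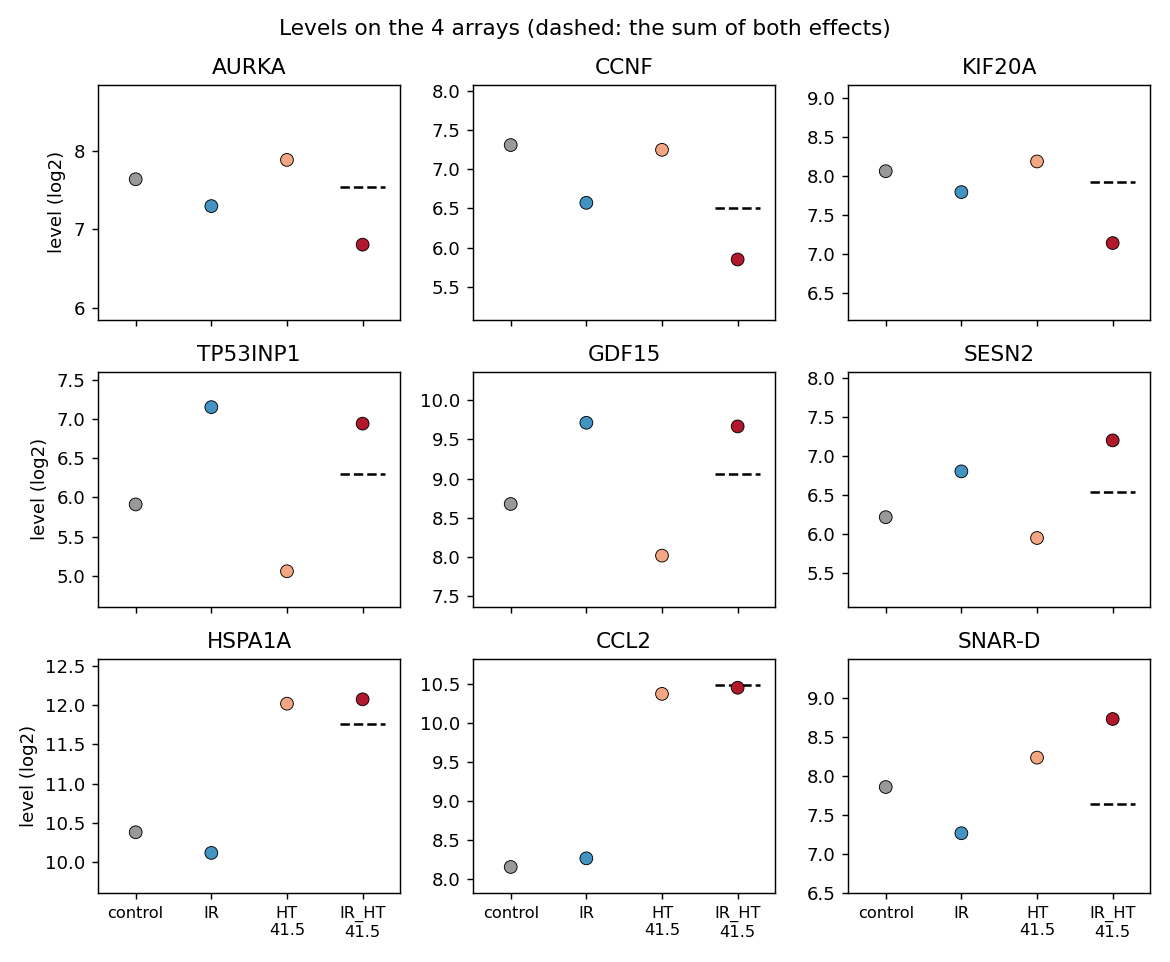
Log2 levels of 9 genes on the 4 arrays, with a dashed line where the sum of both effects would lie, on axes of the same length. AURKA, CCNF and KIF20A lie below the line in the combined array, TP53INP1, GDF15, SESN2 and SNAR-D above it, and CCL2 on it (departure of -0.03).

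Genes of the BCL2 family, which decide mitochondrial apoptosis, had a median departure of 0.27. Of the 13 kept, 9 were above 0 (51.4% of all genes) and 1 was past 1.5-fold upward (1.34%). This list shares BAX, BBC3 and PMAIP1 with the p53 targets, and the median of the other 10 was 0.19. BAK1, which opens the outer membrane of mitochondria, had the highest value at 0.66. It stood at 5.98 in the control, 5.92 in IR, 5.77 in HT 41.5 and 6.38 in IR_HT 41.5, so that only the combined array lay above the control. BCL2L12 (0.51) and the pro-apoptotic BCL2L11 (0.46) followed, and BID (-0.37) and BAD (-0.21) were lowest.

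Genes that responded to radiation were also taken whatever their list. They were chosen on the mean of the radiation effects at 37 °C and 41.5 °C, from the same 4 arrays that give the departure. The effects spread more widely over all genes at 41.5 °C (SD 0.205) than at 37 °C (SD 0.189), so this choice favours the pair at 41.5 °C, and the values are a description that supports nothing further. At a mean of 1.5-fold or more there were 34 genes upward, 13 of them p53 targets, a list with 18 of the 8604 genes kept. Of the 34, 28 departed further in the same direction (51.4% of all genes were above 0), with a median of 0.18. Their median radiation effect was 0.64 at 37 °C and 0.84 at 41.5 °C. Downward there were 34 genes, 19 of them in the mitotic lists, which hold 32 and 34 of the 8604 genes kept. Again 28 went further (48.6% of all genes were below 0), with a median of -0.38, and the radiation effects had medians of -0.54 and -0.89.

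Over all 8604 genes the radiation effects at 37 °C and 41.5 °C had a Pearson correlation of 0.21 across genes, and the heat effects without and with radiation one of 0.58. Genes are not independent, and all points share the same arrays and their scaling, so these describe the arrays only.

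Of 12 heat shock chaperones and co-chaperones kept, 0 had a departure past 1.5-fold, and the median was 0.06, with 6 genes above 0 and 6 below. HSPA6 passed the limit on level only through the arrays at 44 °C, and without it 5 of 11 were above 0 and the median was -0.03. Their median difference from the control was 0.65 after heat and 0.64 after both treatments, and 6 were 1.5-fold or more above the control after heat (1.79% of all genes). HSPA1A, the inducible HSP70, stood at 10.38 in the control, 10.11 in IR, 12.02 in HT 41.5 and 12.08 in IR_HT 41.5, a departure of 0.32. HSPA1B stood at 10.14, 9.95, 11.88 and 11.95, a departure of 0.26, and the pair are too alike in sequence for their signals to be separated. In both, the heated arrays were alike, and the small departure came with a lower value in IR than in the control. HSPA1L (0.56) and BAG3, a co-chaperone (0.49), were the highest of the list. HSPA4L (-0.49), of the HSP110 class, was the lowest, followed by HSPA4 (-0.24) and CHORDC1 (-0.18). HSPA6 had a departure of 0.17 and was below a level of 5 on all 4 arrays.

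Heat-responsive genes as a whole were chosen on the mean of the heat effects without and with radiation, with the same limit as above, since these effects had SDs of 0.252 and 0.285 over all genes. At 1.5-fold or more there were 145 genes upward, of which 99 departed further upward (51.4% of all genes were above 0), with a median of 0.13. Past 1.5-fold were 9 upward (1.34% of all genes) and 0 downward (1.59%). The 9 include SNAR-B1, SNAR-C1 and SNAR-D, which are not separate measurements. Their median heat effect was 0.67 without and 0.79 with radiation. Downward there were 72 genes, of which 41 went further (48.6% of all genes were below 0), with a median of -0.04. Of the 72, 2 departed 1.5-fold or more further downward (1.59% of all genes) and 3 that far in the other direction (1.34%).

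Of 11 inflammatory targets of NF-kappaB kept 8 had a negative departure, with a median of -0.06 and 0 past 1.5-fold in either direction. CCL2, a chemokine for monocytes, stood at 8.15 in the control, 8.26 in IR, 10.37 in HT 41.5 and 10.45 in IR_HT 41.5. The combined array was 2.29 above the control where the sum gave 2.32. RELB (-0.39), a subunit of NF-kappaB, IRAK2 (-0.37), a kinase of interleukin-1 signalling, and CXCL5 (-0.23) were lowest, and TNIP1 (0.14), NFKB2 (0.24) and LIF (0.32) highest. CXCL8, a chemokine for neutrophils, was left out by the limit on level. It stood at 3.99 in the control, 3.98 in IR, 5.38 in HT 41.5 and 4.77 in IR_HT 41.5, a departure of -0.59, which is past 1.5-fold.

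Of 27 immediate early genes 18 had a positive departure, with a median of 0.08 and 0 past 1.5-fold. ATF3, a stress-induced repressor, was the lowest at -0.46. It stood at 4.58 in the control, 5.55 in IR, 4.96 in HT 41.5 and 5.46 in IR_HT 41.5, so that the combined array did not pass IR. JUND (-0.31) and FOSL1 (-0.28) came next, and KLF2 (0.46), FOSL2 (0.42) and KLF4 (0.36) were highest. EGR1 (-0.10) and FOS (0.04) were near 0.

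Of 32 G1/S and replication genes 19 had a negative departure, with a median of -0.03 and 0 past 1.5-fold. E2F7, a repressor of the cell cycle, was the highest of these at 0.56, with 7.01 in the control, 7.396 in IR, 6.78 in HT 41.5 and 7.72 in IR_HT 41.5. E2F2 (0.42) and GINS4 (0.36) followed, and E2F8 (-0.29), SLBP (-0.28) and CCNE2 (-0.25) were lowest. Of 11 genes of the Fanconi pathway and homologous recombination 9 had a negative departure, with a median of -0.15, from RAD54B (-0.33) to XRCC3 (0.16). The 6 end joining genes had a median of -0.01 and the 14 damage signalling genes one of -0.0050, each with 0 past 1.5-fold.

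Metallothioneins, which bind zinc and copper, also had a median below 0, at -0.24 over 5 genes, 4 of them negative. MT2A stood at 5.99 in the control, 6.66 in IR, 6.53 in HT 41.5 and 6.36 in IR_HT 41.5. It was higher after each treatment alone, and the combined array did not pass either of them, which gave a departure of -0.84 (1.79-fold). MT1F had a departure of -0.54 and MT4 one of 0.25.

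Of the 34 lists 30 had 5 or more genes kept, and 24 of these had a median departure between -0.1 and 0.1. Besides those above, these lists included the cytosolic (median 0.04, 50 genes) and mitochondrial ribosomal proteins (0.03, 72), ubiquitin enzymes (-0.01, 56), splicing factors (-0.03, 29) and mitochondrial chaperones (-0.05, 7). Others were genes of cholesterol synthesis (0.05, 17), hypoxia and glycolysis (-0.0031, 11), TGF-beta and BMP signalling (-0.01, 14), the integrated stress response (0.09, 13) and the unfolded protein response (0.10, 9), NRF2 targets (0.07, 8) and interferon-stimulated genes (-0.03, 10). Past 1.5-fold in the 12 lists just named were SESN2, which is also a p53 target, and IFITM3, an antiviral membrane protein, at -1.19. Zinc finger genes had a median of 0.07 over 265 genes, with 6 past 1.5-fold upward and 2 downward, together 3.02% against 2.93% of all genes.

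**Figure D4:**
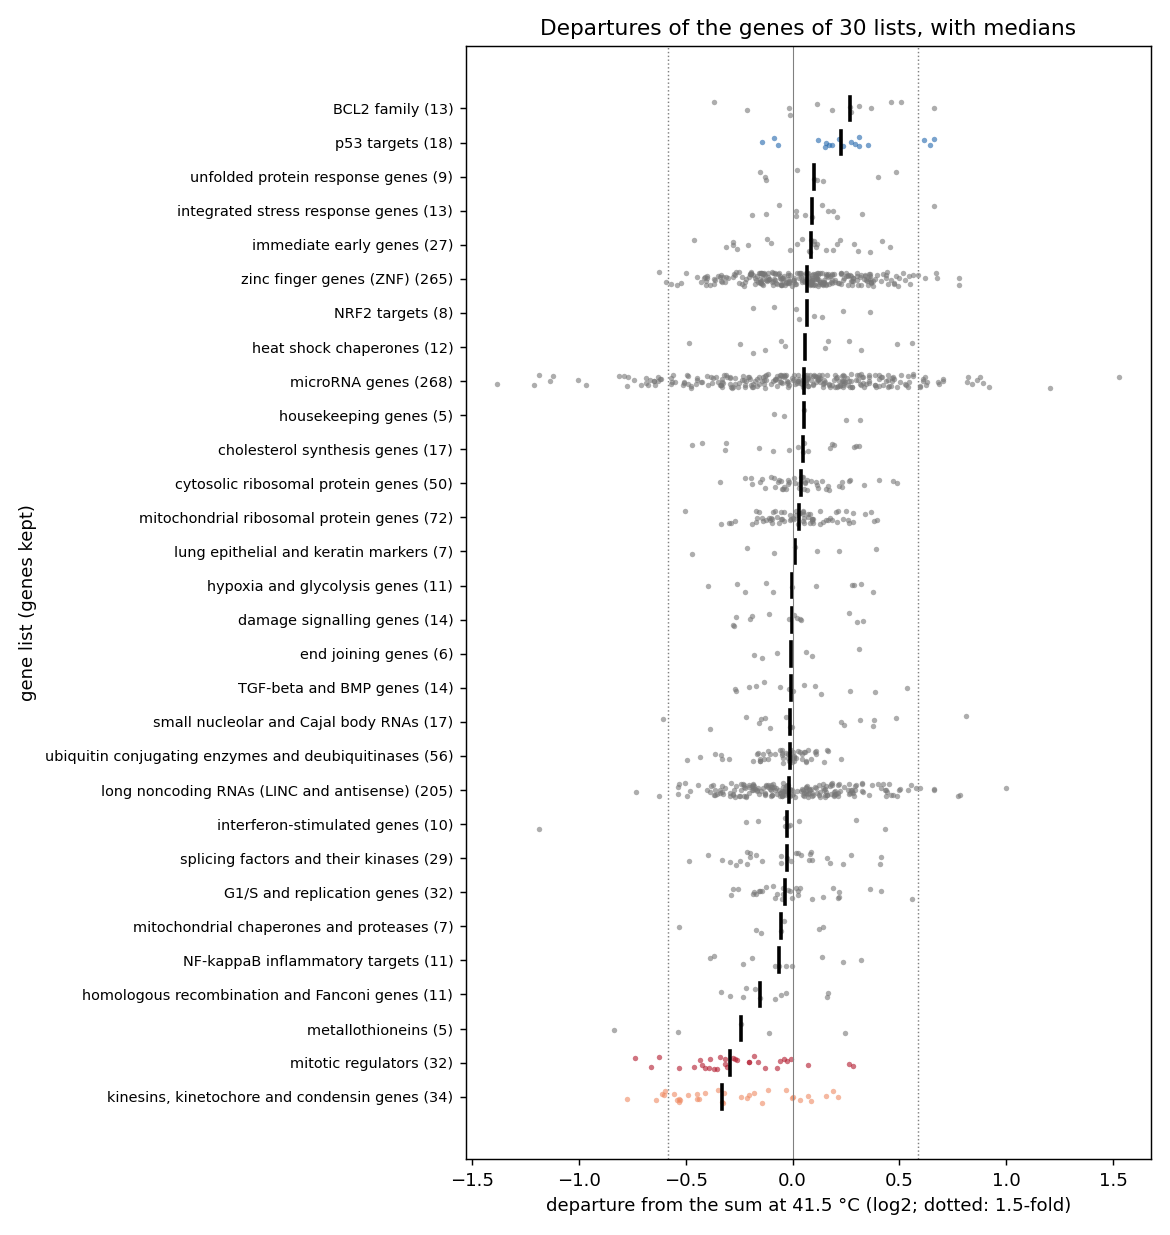
Departure from the sum at 41.5 °C on the log2 scale for the genes of 30 lists, 1 point a gene, with a bar at each median and dotted lines at 1.5-fold. The medians run from -0.33 for kinesins, kinetochore and condensin genes to 0.27 for the BCL2 family.

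The largest single departures were of another kind. Of the 23 genes past 2-fold, 17 had a mean level under 6, where 2936 of the 8604 genes lie, and the SD of the departure was 0.30 at levels from 5 to 6 against 0.17 at 9 and above. In 15 the radiation effect at 37 °C held the larger part of the departure. Of the 23, 8 were microRNA genes. Of 268 genes kept whose symbol starts with MIR, 9 of them host genes, 44 were past 1.5-fold (16.4%, against 2.93% of all genes), 20 upward and 24 downward, with a median of 0.05. Among genes with a level under 6 the share was 18.8% for these and 5.14% for the 2782 others.

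The mature sequences of microRNA genes at both ends of the ranking are shown with bases 2 to 8, the seed that pairs with targets, in capitals (RefSeq, GRCh38.p14). MIR365B is added because its products share both seeds with MIR365A.
hsa-miR-365a-3p (chr16:14309340-14309361, + strand): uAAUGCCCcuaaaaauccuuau
hsa-miR-365a-5p (chr16:14309300-14309322, + strand): aGGGACUUuugggggcagaugug
hsa-miR-365b-3p (chr17:31575478-31575499, + strand): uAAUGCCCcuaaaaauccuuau
hsa-miR-365b-5p (chr17:31575439-31575460, + strand): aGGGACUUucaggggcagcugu
hsa-miR-4742-3p (chr1:224398227-224398249, - strand): uCUGUAUUcuccuuugccugcag
hsa-miR-891a-5p (chrX:146027841-146027862, - strand): uGCAACGAaccugagccacuga
hsa-miR-4481 (chr10:12653181-12653197, - strand): gGAGUGGGcuggugguu
hsa-miR-4710 (chr14:104677723-104677740, - strand): gGGUGAGGgcaggugguu
hsa-miR-4299 (chr11:11656661-11656678, - strand): gCUGGUGAcaugagaggc

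MIR365A had the highest departure of all genes, at 1.53 (2.89-fold). It stood at 6.05 in the control, 5.09 in IR, 5.86 in HT 41.5 and 6.44 in IR_HT 41.5, so that the IR array was low and the combined one a little above the control. MIR365B, whose 3p product is the same sequence, stood at 5.17, 5.02, 5.23 and 4.89 in that order, a departure of -0.19. The arrays cannot separate mature microRNA from its precursors. MIR4742, with a departure of 1.20, was likewise lowest in IR, at 4.03.

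MIR891A had the lowest departure, at -1.38 (2.61-fold). It stood at 5.87 in the control, 6.07 in IR, 6.12 in HT 41.5 and 4.94 in IR_HT 41.5, so that only the combined array was low. MIR548H2 (-1.21) was also lowest in the combined array. MIR4481 (-1.19) and MIR4299 (-1.12) were highest in IR and lowest in the combined array. MIR4710 (-1.14) was highest in HT 41.5, and its combined level was 0.19 above the control.

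Among the protein-coding and other genes of the upper end were CTRB1 (1.13), DPY19L3-DT (1.099), the homeobox genes LHX1 (1.08) and MSX2 (1.07), NEIL1, a DNA glycosylase (1.03), LINC00852 (0.9976), TNIP2 (0.99) and BCL11B (0.99). NEIL1 was low after heat alone. It stood at 5.66 in the control, 5.61 in IR, 4.21 in HT 41.5 and 5.18 in IR_HT 41.5. At the lower end were NF1P2 (-1.34), FAM238C (-1.33), IFITM3 (-1.19), GPR132 (-1.19), STUM (-1.16), PRAMEF22 (-1.09), NUDT16L2P (-1.02) and SOX10 (-1.02), with mean levels from 5.18 to 6.08.

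Only 2 of the 23 genes had a mean level of 7 or more, SNAR-C1 and SNAR-D, small noncoding RNAs that bind the protein NF90. SNAR-C1 stood at 10.32 in the control, 9.71 in IR, 10.75 in HT 41.5 and 11.21 in IR_HT 41.5, a departure of 1.07. SNAR-D stood at 7.86, 7.27, 8.23 and 8.73, a departure of 1.08, and SNAR-B1 had one of 0.96. In all 3 the IR array was the lowest and the combined array the highest. These copies are nearly identical in sequence and are not separate measurements. Of the 8 SNAR genes kept 6 had a positive departure, and SNAR-I had one of -0.70. Among small Cajal body RNAs SCARNA5 had a departure of 0.81 with a low IR array (7.51, against 8.38, 8.32 and 8.26 in the control, HT 41.5 and IR_HT 41.5), and SCARNA3 one of -0.61. The median of the 17 kept was -0.01.

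**Figure D5:**
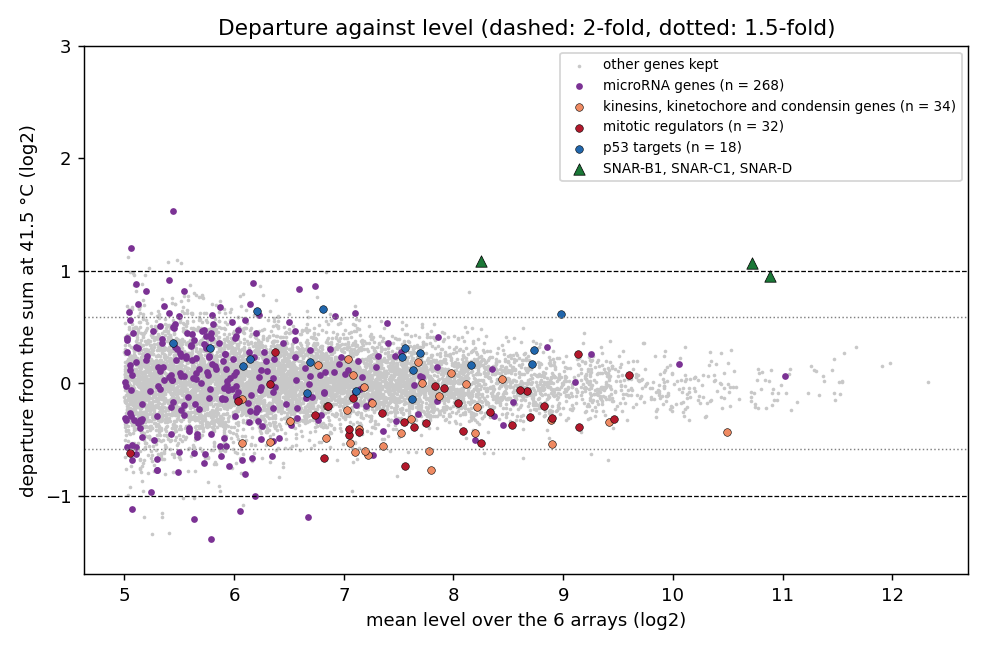
Departure at 41.5 °C (log2) against the mean level over the 6 arrays (log2), 1 point a gene for the 8604 genes kept, with lines at 2-fold and 1.5-fold. Most genes past 2-fold are dim (17 of 23 under a level of 6), whereas the mitotic and p53 lists reach across the levels.

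The departure itself cannot be tested, since its groups of 1 array leave no residual. A related term can be fitted if the arrays at 44 °C lend one. That term is the radiation effect at 41.5 °C minus the mean of those at 37 °C and 44 °C. Its sizes are not those of the departures, as for AURKA (-0.98 in the fit, -0.74 as a departure). A model with temperature, radiation and a term for radiation at 41.5 °C, fitted with limma to all 6 arrays, has 1 residual degree of freedom and counts any interaction at 44 °C as noise. At an adjusted p under 0.05 (Benjamini-Hochberg over 8604 genes, two-sided) it called 0 genes (0%), and 495 (5.75%) had an unadjusted p under 0.05. The smallest adjusted p was 0.156, for MIR891A (-1.35 ± 0.21, SE). KIF20A (-0.90 ± 0.17, adjusted p = 0.251) and AURKA (-0.98 ± 0.20, adjusted p = 0.33) were among the 8 genes with the smallest p, as was TOP2A (-0.52 ± 0.11, adjusted p = 0.352). SESN2 had 0.93 ± 0.22 with an adjusted p of 0.353. This p does not show that the effects were additive.

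The identity of the cells was checked on the arrays. KRT18 (mean level 11.51), KRT7 (7.52), KRT8 (6.65) and EPCAM (6.11), markers of lung epithelium, were kept, and KRT19 (4.43) was not. Of the markers of other cells in this short set, CD14 stood at 5.41, and LYZ, PECAM1, VWF, DCN and LUM stood between 1.997 and 4.27. In the longer marker lists, 3 of 5 measured leukocyte genes were kept, CD8A among them (median level 5.75). So were 2 of 5 endothelial genes, ESAM and CLDN5 (5.78), and 1 of 3 fibroblast genes, THY1 (5.47). Of the lung epithelial and keratin list 7 of 13 were kept (6.65). The markers thus do not all separate the cell types. The array medians over all features lay between 4.39 and 4.46. Housekeeping genes had a median departure of 0.05 over 5 genes, and the lung epithelial and keratin list one of 0.01 over 7.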

How the data were processed

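RNA from 6 samples of A549 cells was hybridised to 1 Affymetrix array each. Per the submitters' processing notes, the authors summarised the arrays by RMA in Affymetrix Expression Console 1.1, and the values deposited by the authors are log2 levels. The probe annotation names no build in the material used here. RMA makes the arrays alike in distribution, so a shift shared by most genes would not be seen, and it compresses differences of dim features.

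Of 53617 features 16098 carried 1 gene symbol in the platform annotation, 0 several, and 37519 are unnamed here. All 16098 matched the RefSeq table of GRCh38.p14 by gene identifier, and 0 symbols changed. For the 779 genes with several features the one with the highest mean was used. Departures were computed from those values with pandas 2.3.3, and the interaction was fitted with limma 3.58.1 in R 4.3.3 letting the prior variance follow the level (prior degrees of freedom 12.3, median SE 0.188). Both were tested on simulated data. The number of arrays limits the precision.

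The members, gene lists, sizes and named genes (the 12 highest and 12 lowest departures, the ends of each list and a short set) were chosen with earlier results of these data known. Histone genes and markers of leukocytes, endothelium and fibroblasts had fewer than 5 genes kept (1, 3, 2 and 1). Alternatives were other scalings, level limits, rules for features, sizes and moderations, additivity on the linear scale, and another radiation effect.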

Additional observations from a re-analysis of the deposited data

Results flagged for a closer look

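Radiation effects of opposite sign at 37 °C and 41.5 °C marked all 23 genes with a 2-fold departure. The departure is the difference of these effects, so choosing genes on its size largely sets this outcome, and over all genes kept the share was 46.9%. The difference was not tested. Of the 23, 17 had a mean level under 6.

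The metallothioneins had a median radiation effect of 0.22 at 37 °C and -0.03 at 41.5 °C, with a median departure of -0.24 over 5 genes. This difference was not tested either.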

How the results depend on the processing

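The medians of the lead lists kept their sign in all settings for mitotic regulators (-0.48 to -0.27), kinesins and kinetochore genes (-0.50 to -0.30), p53 targets (0.20 to 0.44) and immediate early genes (0.02 to 0.10). Those of heat shock chaperones (-0.04 to 0.15) and NF-kappaB targets (-0.07 to 0.0043) crossed 0. With the radiation effect outside mild heat taken as the mean of those at 37 °C and 44 °C, the first 3 medians moved to -0.48, -0.50 and 0.44, by more than 0.147, a tolerance taken from the interquartile range of all departures that stood in for the missing replicate spread. The same setting changed the sign of the departure of DEPDC1B (-0.11), the departure of KIF4A (-0.0664) and the departure of KNL1 (-0.14). Additivity on the linear scale turned the departure of FOSL1 (0.0629), and the mean of all features turned the departure of MRPL44 (0.35) and the departure of RPL39 (0.0667). The radiation effects at 44 °C that enter that mean had medians of -0.01, 0.09 and 0.15 for the first 3 lists. At 37 °C these medians were -0.32, -0.30 and 0.56. The definition of the setting thus moves the list medians further from 0, and the larger medians are no added support. The cause of the changes in single genes was not tested.

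The 9 genes with a departure of 1 or more and the 14 genes with a departure of -1 or less depended on the level limit and the definition. They were 87 and 105 without a limit, 2 and 4 at a level of 6, 2 and 0 at a level of 7, 23 and 7 on the linear scale, 2 and 5 with the mean radiation effect, and 115 and 137 at 1.5-fold. A further quantile normalization, median centring and the mean of all features left both counts within 1.5 times. The interaction fit called 0 genes in all 7 settings, with smallest adjusted p from 0.0541 to 0.477 and 408 to 858 genes at an unadjusted p under 0.05. Leaving out an array was not possible, since each departure needs all 4 and the fit all 6. No paired analysis was possible because the labels carry no replicate numbers. Signal over background limits the dim genes.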

Other observations

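Among the 3067 genes with a mean level of 7 or more, a limit chosen after seeing the data, 7 were past 1.5-fold upward and 19 downward. Of the 19, 6 were in the mitotic lists, whose share of the 3067 genes is not given here, so no excess can be read from this. Others that the lists do not hold were ARHGAP11A, a GTPase-activating protein of dividing cells (departure -0.62), and GAS2L3, a cytoskeletal linker in cytokinesis (-0.61). Both were low in IR and lowest in the combined array, GAS2L3 with 7.88 in the control, 7.18 in IR, 7.85 in HT 41.5 and 6.54 in IR_HT 41.5. SAT1, an enzyme that acetylates polyamines, had a departure of -0.68 of another form: it was 10.02 in IR and between 9.32 and 9.37 on the other 3 arrays. SUMO2, a ubiquitin-like modifier, had one of -0.63, with the combined array low. Upward, SERTAD1, a regulator of CDK4, was at 6.17, 6.45, 6.13 and 7.09 in the order control, IR, HT 41.5 and IR_HT 41.5, a departure of 0.68. Its mean over these arrays was under 7. SERTAD1 thus passed the limit used here only through the arrays at the higher temperature, which do not enter the departure.

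PURPL, a long noncoding RNA that p53 raises, and MIR3189, which lies within GDF15, were among the genes with the largest radiation effects and departed by 0.37 and 0.12.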
